A study of Mus musculus with 12 samples.

Results

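The maturation step from stage 0 to stage 1 of wild-type (WT) invariant natural killer T (iNKT) cells was compared across genes, using 3 RNA libraries titled as WT stage 1 and 3 titled as WT stage 0. These are 6 of the series' 12 RNA libraries, and the gene counts of all 12 were fitted together. The cells were thymocytes sorted from pools of 4 to 7 untreated C57Bl/6J mice, aged 4 to 5 weeks. All sorted cells bound the iNKT tetramer and carried the T cell receptor (TCR) beta chain. Stage 0 cells were CD24-positive and CD44-negative, and stage 1 cells were negative for both. The other 6 libraries came from the same 2 gates in mice labelled CDCre;Bcl6F/F (Bcl6KO), that is, a Cre with floxed Bcl6 alleles, and the labels do not spell out what drives the Cre. Nothing in the labels tells if each of the 3 libraries in a group had its own pool of mice, and the p-values therefore speak only for how these libraries vary, which could be technical.

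An iNKT cell is a T cell whose semi-invariant receptor recognises lipids presented by CD1d. It arises from CD4 and CD8 double-positive thymocytes, is selected by other double-positive thymocytes through CD1d together with homotypic SLAM receptor contacts, and then takes on an innate-like program under the transcription factor PLZF, the product of Zbtb16. Stage 0 is the step right after selection, when TCR signalling is recent, and stage 1 is the dividing step at which cytokine-producing subsets begin to diverge.

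Library totals ran from 4213431 to 5190157 counts over the 6 WT libraries, and levels are given as CPM, counts relative to the library's total after TMM scaling, in the order of replicates 1 to 3. A floor of 3 counts, the most that a count of 0 allows, is worth 0.590 to 0.615 CPM, and such floors cover counting error only. Of the 6 WT libraries, 1 stood apart from its group on the first principal component. Stage 0 replicate 2 lay at 12.7 on the first principal component of the WT libraries (43.2% of the variance), against -125 and -112 for stage 0 replicates 1 and 3 and 68.1 to 87.3 for stage 1. It had 21607 genes detected, against 18417 and 19285, and 0.0289% of its counts fell on Sp100, a nuclear body gene that took 5.03% and 4.91% in stage 0 replicates 1 and 3. In stage 1 that share was 0.0320%, 0.0303% and 0.937%. The second principal component (26.3%) instead parted stage 0 replicates 1 and 3, at 114 and -119, with replicate 2 at -8.75. In limma voom the quality weights of stage 0 replicates 1 to 3 were 0.663, 1.31 and 0.780. By that measure replicate 2 was the least variable library of stage 0. Genes annotated as rRNA or rRNA-like took 1.88%, 1.80% and 1.62% of counts in stage 0 and 5.12%, 3.29% and 2.81% in stage 1, without overlap, and the part of this in the results was not tested. Where a gene described here did not pass in the fit of all 12 libraries but passed without stage 0 replicate 2, that value is given too. Some of these genes also passed under other settings, as did some genes for which no such value is given.

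The sort markers followed their labels. Cd24a, the surface glycoprotein of the gate, was at 179.7, 149 and 171 CPM in stage 0 and 2.99, 0.7897 and 13.7 CPM in stage 1, with no overlap (log2 fold change -4.83, SE 0.78, adjusted p = 0.0155, by the quasi-likelihood test of edgeR, adjusted after Benjamini and Hochberg). Because the gate selected on CD24, this difference checks the labels and is no finding. Cd44, which both gates excluded, was at 0.199, 7.88 and 6.102 CPM and then 26.9, 3.36 and 14.8 CPM, and the groups overlapped. Zbtb16 was at 193, 209.7 and 96.8 CPM in stage 0 and 409, 581 and 641 CPM in stage 1. Every stage 1 library was above every stage 0 library, but the difference did not pass the test (log2 fold change 1.71, SE 0.59, adjusted p = 0.387). Cd3e, a signalling chain of the TCR complex, was at 1167, 1003 and 1204 CPM in stage 0 and 990.2, 1270.3 and 1988 CPM in stage 1.

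Markers of other cells differed in level, and those of gamma-delta T cells are given with the gamma chain genes. C1qc, Cd14, Itgax and Fcgr3 of myeloid cells, Hba-a1 of red cells, Ncr1 of natural killer cells, and Krt5, Krt8 and Pdgfra of stroma had no counts in any WT library. Pax5, a B cell factor, was at 30.6, 0.197 and 20.1 CPM in stage 0 and 0.598, 0.197 and 0.205 CPM in stage 1, and without stage 0 replicate 2 Pax5 passed, at a log2 fold change of -6.18 and adjusted p = 0.0202. Ms4a1, which encodes CD20, was at 17.7, 1.38 and 0 and 0, 0 and 0 CPM. Over the 13 B cell markers the summed level was 156, 127 and 78.5 CPM and 113, 188 and 172 CPM. The corresponding sums of the 19 myeloid and dendritic markers were 40.7, 55.1 and 80.5 CPM and 57.6, 52.5 and 85.3 CPM, so neither list separated the stages. The 10 erythroid markers summed to 6.76, 1.18 and 26.0 CPM in stage 0 and 8.97, 6.71 and 9.23 CPM in stage 1, with overlap. Of those 10, 4 had no counts in any WT library. The 15 stroma markers summed to 375, 251 and 336 CPM in stage 0 and 169, 199 and 191 CPM in stage 1, with no overlap. The 14 natural killer and innate lymphoid markers summed to 70.0, 128 and 53.1 CPM in stage 0 and 254, 320 and 333 CPM in stage 1, with no overlap. The 10 regulatory T cell markers summed to 939, 655 and 569 CPM and 361, 662 and 485 CPM, with overlap. The part of these marker lists in the results was not tested. In bulk RNA, fewer cells of a type and less RNA per cell cannot be told apart.

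Of 15704 genes tested, 68 passed at an adjusted p under 0.05 (0.433%), of which 57 fell (0.363%) and 11 rose (0.0700%). At an unadjusted p under 0.05 there were 1319 (8.40%). Counts of list members called, as given below, stand against these shares of all genes. The 68 genes had log2 fold changes from -9.20 to -1.05 among the falls and from 2.06 to 7.92 among the rises, and 43 of the 57 falls and all 11 rises were larger than 4-fold. By annotation, 52 of the falls and 10 of the rises were protein-coding genes. The groups of 3 did not overlap for any of the 68, against 21.5% of all genes tested (12.5% higher and 9.06% lower at stage 1). The median over all genes was -1.99e-04, with 7849 above 0. Stage 0 replicate 2 was the stage 0 library nearest to stage 1 for 9 of the 11 rises and 45 of the 57 falls. Without it 139 genes passed, 59 higher and 80 lower, and 63 of the 68 were among them. The 5 that were not were Csf1, F2rl1, Paqr8, Gfi1 and Nrip1, at adjusted p between 0.0529 and 0.0876.

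**Figure D1:**
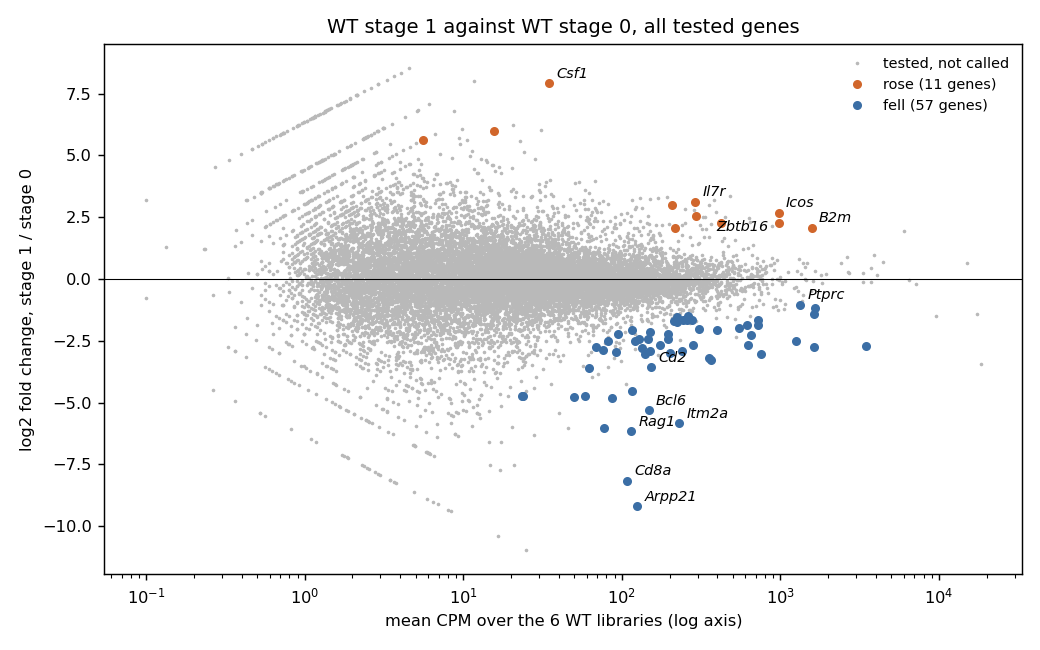
Mean level over the 6 WT libraries (CPM, log axis) against the log2 fold change of stage 1 over stage 0 for each gene tested; orange points rose, blue points fell and grey points were not called. The 57 falls lie between -9.20 and -1.05 and the 11 rises between 2.06 and 7.92, while the grey cloud is centred on 0.

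Several genes of the double-positive thymocyte fell. In a list of 30 such genes, 28 were tested. Of these 6 fell and none rose, against 0.363% and 0.0700% of all genes tested. The 6 include Cd24a, on which the gate selected, so its call adds nothing to that count. The median log2 fold change was -2.43 against -1.99e-04 over all genes. Rag1, one subunit of the recombinase that assembles antigen receptor genes, was at 50.5, 491 and 136 CPM in stage 0 and 4.38, 4.74 and 0.205 CPM in stage 1 (log2 fold change -6.17, SE 1.04, adjusted p = 0.02). Stage 0 replicate 2 held the highest Rag1 level, and every stage 0 library was above every stage 1 library. Arpp21, a cAMP-regulated phosphoprotein gene abundant in double-positive cells, was at 97.8, 267 and 387 CPM and 0.797, 0.197 and 0.205 CPM (log2 fold change -9.20, SE 1.00, adjusted p = 9.94e-04). Only 6 counts remained in the 3 stage 1 libraries against 3810 in stage 0, a ratio of 625 (95% exact interval 287 to 1705, counting error only). Cd8a, the alpha chain of the CD8 coreceptor, was at 66.2, 265 and 316 CPM and 0.797, 1.38 and 0 CPM (log2 fold change -8.16, SE 0.98, adjusted p = 0.00214).

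Cd2, an adhesion receptor of T cells, fell from 338, 198 and 309 CPM to 30.5, 10.9 and 29.1 CPM (log2 fold change -3.58, SE 0.44, adjusted p = 0.00241). Slc29a1, an equilibrative nucleoside transporter, fell from 318, 234 and 352 CPM to 37.5, 47.2 and 58.5 CPM (log2 fold change -2.66, SE 0.43, adjusted p = 0.0147). For both, every stage 0 library was far above every stage 1 library. The recombinase partner Rag2 and the template-independent polymerase Dntt, named here as thymocyte markers, did not pass. Rag2 was at 40.2, 105 and 3.35 CPM in stage 0 and 0, 0 and 0 CPM in stage 1 (adjusted p = 0.0836), and Dntt at 40.2, 104 and 20.9 and 1.79, 0.197 and 0 CPM (adjusted p = 0.0819). Their stage 0 libraries differed widely among themselves. Cd8b1, the CD8 beta chain, was at 21.5, 85.4 and 42.5 CPM and 5.98, 5.13 and 7.59 CPM (adjusted p = 0.111). Not every gene of the list was lower. Cd4 was at 217, 299.9 and 145 CPM in stage 0 and 367, 184 and 578 CPM in stage 1, and Ccr9, the receptor for the thymic chemokine CCL25, at 523, 573 and 484 and 541, 100.3 and 628 CPM. For both genes the groups overlapped. Satb1, a chromatin organiser of thymocytes, stayed above 1000 CPM in every library, at 1139.5, 1534 and 1429.7 and then 1089.8, 1064 and 1035 CPM (log2 fold change -0.36, SE 0.19, adjusted p = 0.664).

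**Figure D2:**
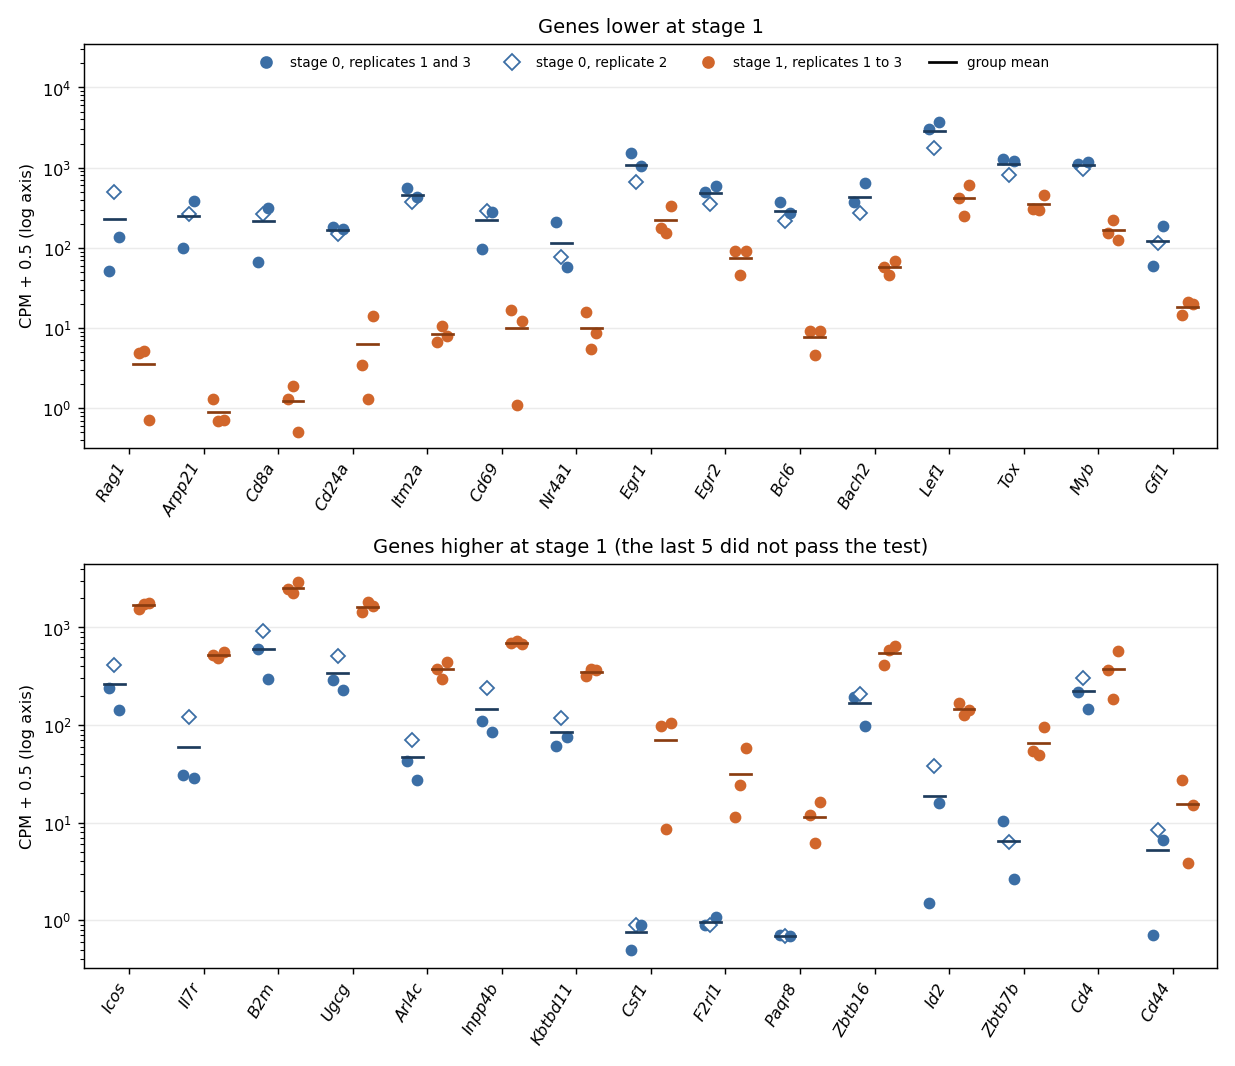
CPM plus 0.5 (log axis) of 30 genes in the 6 WT libraries; blue points are stage 0, with replicate 2 as an open diamond, orange points are stage 1, and bars are group means. In the upper panel all stage 0 points are above all stage 1 points, and in the lower panel the first 10 genes rose while Zbtb16, Id2, Zbtb7b, Cd4 and Cd44 did not pass the test.

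Genes that TCR signals induce during positive and agonist selection were also among the falls. Of 34 tested, 6 fell and none rose (median log2 fold change -1.02), against 0.363% and 0.0700% of all genes. Itm2a, which encodes a membrane protein induced at positive selection, had the lowest p of all genes. Its level was 553, 369.9 and 433 CPM in stage 0 and 6.18, 10.1 and 7.38 CPM in stage 1 (log2 fold change -5.84, SE 0.51, adjusted p = 3.94e-04), a gap far wider than the spread within either group. Cd69, an activation antigen that holds thymocytes in the thymus by opposing the S1P receptor, was at 96.8, 288 and 283 CPM and 16.3, 0.592 and 11.9 CPM (log2 fold change -4.53, SE 0.82, adjusted p = 0.032). Nr4a1, an orphan nuclear receptor whose level tracks TCR signal strength, was at 208, 77.2 and 56.9 CPM and 15.1, 4.94 and 8.204 CPM (log2 fold change -3.59, SE 0.66, adjusted p = 0.035). Stage 0 replicate 1 was the highest for Nr4a1 and the lowest for Cd69, so the 2 genes did not rank the stage 0 libraries alike. Egr2, the zinc finger factor that induces Zbtb16 in iNKT precursors, was at 496, 357 and 598 CPM and 90.1, 45.02 and 90.2 CPM (log2 fold change -2.69, SE 0.35, adjusted p = 0.00343). Egr1 followed at 1522, 662 and 1054 CPM and 179, 153 and 333 CPM (log2 fold change -2.28, SE 0.36, adjusted p = 0.0147). The groups of both Egr genes were apart, and both genes were still counted in every stage 1 library. Tox, an HMG-box factor needed for CD4 lineage and iNKT development, was at 1285, 815 and 1203 CPM and 304, 294 and 451 CPM (log2 fold change -1.65, SE 0.26, adjusted p = 0.0132). Irf4, a factor induced by TCR signals and used by effector cells, had the opposite sign. It was at 20.3, 24.4 and 4.33 CPM in stage 0 and 165, 76.2 and 117 CPM in stage 1, without overlap, and did not pass (log2 fold change 2.87, SE 1.04, adjusted p = 0.414).

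The bases upstream of 3 genes are shown because they hold sites searched in all promoters: Rag1 and Itm2a fell, and Il7r, described with the cytokine receptors, rose. Each line gives the 250 bases before the RefSeq start, 5′ to 3′ on the gene's strand, in build GRCm38.p6. Capitals mark an E-box (CAGCTG, or CAGGTG on either strand), bound by E proteins of the thymocyte program, or in Il7r a match to TTCCNNGAA on either strand, a core of the BCL6 motif.
Rag1 (chr2:101649533-101649782, minus strand): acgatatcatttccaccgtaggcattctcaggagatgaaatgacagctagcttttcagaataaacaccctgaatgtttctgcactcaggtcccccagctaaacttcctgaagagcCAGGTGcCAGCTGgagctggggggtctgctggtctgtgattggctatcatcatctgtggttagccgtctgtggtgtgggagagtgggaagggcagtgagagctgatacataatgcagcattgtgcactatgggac
Itm2a (chrX:107403361-107403610, minus strand): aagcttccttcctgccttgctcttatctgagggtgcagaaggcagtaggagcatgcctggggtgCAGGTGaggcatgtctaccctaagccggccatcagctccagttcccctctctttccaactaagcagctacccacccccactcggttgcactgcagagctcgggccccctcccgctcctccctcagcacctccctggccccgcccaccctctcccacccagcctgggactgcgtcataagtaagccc
Il7r (chr15:9529877-9530126, minus strand): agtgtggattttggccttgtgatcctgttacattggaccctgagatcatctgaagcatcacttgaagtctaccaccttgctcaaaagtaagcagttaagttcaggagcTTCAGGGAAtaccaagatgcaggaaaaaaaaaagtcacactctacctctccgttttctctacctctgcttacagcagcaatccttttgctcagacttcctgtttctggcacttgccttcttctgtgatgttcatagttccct
The RefSeq start of Il7r lies 300 bases from the start of the GENCODE gene. RefSeq promoters were matched for 49 of the 68 called genes. CAGCTG was present upstream of 6 of 41 fallen genes (14.6%) and 11.5% of all 9970 tested genes with a promoter, and CAGGTG upstream of 8 of 41 (19.5%) and 15.2%. None of the 8 risen genes held either. TTCCNNGAA was upstream of 1 of 8 risen genes, 1 of 41 fallen genes and 3.84% of all. The shares among fallen genes were near those of all promoters. A match of letters shows no binding.

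Transcription regulators of iNKT development were among the falls too. Of 39 tested, 6 fell and none rose (median -0.18), against 0.363% and 0.0700% of all genes. Bcl6, a BTB zinc finger repressor, was at 373, 217 and 275 CPM in stage 0 and 8.77, 4.15 and 8.61 CPM in stage 1 (log2 fold change -5.32, SE 0.53, adjusted p = 9.61e-04). Its stage 1 libraries kept a few CPM each. Myb, which sustains double-positive thymocytes long enough for the distal rearrangements that make the iNKT alpha chain, was at 1105, 954 and 1172 CPM and 152, 223 and 124 CPM (log2 fold change -2.69, SE 0.28, adjusted p = 9.94e-04). Bach2, a repressor of effector genes, was at 372, 268 and 635 CPM and 57.99, 45.02 and 67.3 CPM (log2 fold change -2.90, SE 0.32, adjusted p = 0.00103). These 3 genes had their groups well apart and passed in all 21 alternatives. Lef1, an HMG-box partner of TCF1, fell from 3056, 1767 and 3723 CPM to 413, 248 and 607 CPM (log2 fold change -2.75, SE 0.38, adjusted p = 0.00484), while Tcf7, which encodes TCF1 and was chosen after its values were seen, had a log2 fold change of 0.03 (adjusted p = 0.995). Hivep3, a large zinc finger gene known for its role in iNKT development, fell from 7252, 3072 and 7855 CPM to 868, 717 and 1184 CPM (log2 fold change -2.71, SE 0.39, adjusted p = 0.0063). Gfi1, a zinc finger repressor, was at 59.03, 115 and 185 CPM and 13.9, 20.5 and 19.3 CPM (log2 fold change -2.74, SE 0.53, adjusted p = 0.0432).

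No regulator of the list passed in the upward direction. Zbtb7b, which encodes ThPOK, the CD4 lineage factor, was at 9.94, 5.91 and 2.17 CPM in stage 0 and 54.2, 48.96 and 93.9 CPM in stage 1 (log2 fold change 3.45, SE 0.69, adjusted p = 0.0504). Elf4, an ETS family factor, was at 273, 327 and 179 CPM and 718, 759 and 842 CPM (log2 fold change 1.57, SE 0.32, adjusted p = 0.0576). Neither pair of groups overlapped, and both missed the threshold narrowly. Id2, an inhibitor of E proteins, was at 0.994, 37.6 and 15.5 CPM and 167, 126 and 144 CPM (log2 fold change 3.01, SE 0.80, adjusted p = 0.181), and the stage 0 libraries spanned a wide range. Foxo1, a factor of quiescent and mature T cells, was at 82.5, 80.1 and 66.7 CPM and 312, 127 and 269 CPM (log2 fold change 1.63, SE 0.42, adjusted p = 0.162). Gata3 overlapped between the stages at 302, 228 and 239.9 CPM and 162, 178 and 257 CPM (log2 fold change -0.37, SE 0.27, adjusted p = 0.813).

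Several components that relay or restrain the TCR signal fell. Rasgrp1, the exchange factor that couples diacylglycerol to Ras, was at 1463, 984 and 1561 CPM in stage 0 and 151, 193 and 142 CPM in stage 1 (log2 fold change -3.04, SE 0.33, adjusted p = 9.94e-04). The diacylglycerol kinases that remove its ligand fell too. Dgka was at 390.4, 287 and 308 CPM and 141, 82.5 and 119 CPM (log2 fold change -1.52, SE 0.28, adjusted p = 0.0359), and Dgkz at 501, 326 and 345 and 142, 103 and 123 CPM (log2 fold change -1.67, SE 0.29, adjusted p = 0.0202). These were the 3 called of 28 genes tested for diacylglycerol, Ras and MAP kinase signalling (median -0.17), against 0.433% of all genes. Among 28 genes of the TCR complex and proximal signalling, 2 fell (median -0.30), against 0.363% of all genes. Ptprc, the CD45 phosphatase that activates Lck, was at 1829, 1647 and 1899 CPM and 969.6, 950.3 and 676 CPM (log2 fold change -1.05, SE 0.20, adjusted p = 0.0393), the smallest change of the 68. Sla, the SLAP adaptor that lowers TCR levels on double-positive cells, was at 526, 317 and 416 CPM and 136, 137 and 127 CPM (log2 fold change -1.65, SE 0.29, adjusted p = 0.0233). The stage 1 libraries of Sla were close together. Txk, a Tec family kinase, was at 128, 346 and 470.2 CPM and 112, 119 and 62.8 CPM and did not pass (log2 fold change -1.68, SE 0.54, adjusted p = 0.341). No gene of the calcium and NFAT list passed (28 tested, median -0.01, a sign that changed under other settings). In that list 7 had an unadjusted p under 0.05, against 8.40% of all genes. Within it Nfatc1 was at 1327, 605 and 943 CPM and 339.9, 485 and 512 CPM (log2 fold change -1.10, SE 0.30, adjusted p = 0.19), and without stage 0 replicate 2 it passed, at a log2 fold change of -1.38 and adjusted p = 0.0433.

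Receptors for costimulation and SLAM contacts included calls in both directions. Icos, an inducible costimulatory receptor, was at 239, 410.5 and 143 CPM in stage 0 and 1539, 1736 and 1778 CPM in stage 1 (log2 fold change 2.67, SE 0.34, adjusted p = 0.0031), and its family member Cd28 at 2659.7, 1939 and 2489 CPM and 1072, 588 and 991 CPM (log2 fold change -1.42, SE 0.24, adjusted p = 0.0183). Icos thus passed upwards and Cd28 downwards, in each case without overlap, and Icos passed in all 21 alternatives. The remaining 12 of the 14 genes tested in the CD28 family did not pass, among them Btla, an inhibitory receptor, at 532, 201 and 374 and 191, 87.9 and 83.3 CPM (log2 fold change -1.61, SE 0.43, adjusted p = 0.185). Slamf6, which shares with Slamf1 the task of signalling during iNKT selection, was at 954, 653 and 1020.1 CPM and 255, 205 and 203 CPM (log2 fold change -1.99, SE 0.28, adjusted p = 0.00556). Slamf1 was at 106, 92.9 and 143 CPM and 12.6, 6.91 and 25.02 CPM, without overlap, and missed the threshold (log2 fold change -2.94, SE 0.60, adjusted p = 0.0541). Cd84 did too, at 601, 499 and 950.3 and 272, 240.5 and 187 CPM (log2 fold change -1.55, SE 0.35, adjusted p = 0.0875). Of the 8 genes tested in the list of SLAM receptors, SAP and Fyn, 1 fell and the median was -0.95.

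In the TNF superfamily 2 of 24 genes tested fell, and none rose, against 0.363% and 0.0700% of all genes. Tnfsf8, the ligand of CD30, was at 217, 144 and 98.2 CPM in stage 0 and 4.38, 1.97 and 0.615 CPM in stage 1 (log2 fold change -6.02, SE 0.84, adjusted p = 0.00556). Cd27, a costimulatory receptor of thymocytes, was at 1411, 817 and 1177 CPM and 321, 303 and 311 CPM (log2 fold change -1.86, SE 0.30, adjusted p = 0.0164). Over the whole list 15 of 24 members had a positive log2 fold change (median 0.75). Tnfrsf1b, a receptor for TNF, was at 10.5, 44.5 and 37.2 CPM and 77.1, 145 and 171 CPM (log2 fold change 2.09, SE 0.63, adjusted p = 0.293). Fasl, the death ligand, had 1 count in all stage 0 libraries together, and was at 9.96, 5.33 and 3.28 CPM in stage 1, without passing (adjusted p = 0.208).

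Among 31 cytokine receptors tested, 1 rose and 3 fell (median 0.43), against 0.0700% and 0.363% of all genes. Il7r, the alpha chain of the receptor for the survival cytokine interleukin 7, was at 30.01, 120.1 and 28.3 CPM in stage 0 and 518, 483 and 557 CPM in stage 1 (log2 fold change 3.13, SE 0.57, adjusted p = 0.032). The highest stage 0 library was replicate 2, and it was still well below every stage 1 library. Il4ra, the receptor chain for interleukins 4 and 13, was at 154, 78.6 and 105 CPM and 4.78, 3.16 and 4.72 CPM (log2 fold change -4.73, SE 0.78, adjusted p = 0.0179). Il21r, which pairs with the common gamma chain, was at 275, 130.1 and 341 CPM and 37.3, 20.7 and 33.8 CPM (log2 fold change -3.02, SE 0.44, adjusted p = 0.0063). Il6st, the shared signal chain gp130, was at 294, 173 and 268 CPM and 49.8, 62.4 and 24.4 CPM (log2 fold change -2.43, SE 0.47, adjusted p = 0.0417). For these 3 falls the stages were clearly apart in every library. Il6ra, the partner of gp130, had the opposite sign at 0.795, 44.1 and 1.38 CPM and 187, 93.8 and 132 CPM (log2 fold change 3.15, SE 1.34, adjusted p = 0.522), and without stage 0 replicate 2 it passed, at a log2 fold change of 6.92 and adjusted p = 0.0455. Il17rb, the interleukin 25 receptor, was at 28.2, 78.6 and 103 CPM and 401, 245 and 338 CPM (log2 fold change 2.23, SE 0.56, adjusted p = 0.139), and Il27ra at 90.6, 122 and 22.2 and 205, 313 and 293 CPM (log2 fold change 1.79, SE 0.53, adjusted p = 0.267). Il2rb, the beta chain of the receptors for interleukins 2 and 15, was at 184, 163 and 89.8 CPM and 279, 229.8 and 307 CPM (log2 fold change 0.90, SE 0.62, adjusted p = 0.788). None of the 23 JAK, STAT and SOCS genes tested passed, with 4 at an unadjusted p under 0.05, against 8.40% of all genes. Cish, an early target of STAT5, was at 0, 2.17 and 0.787 CPM and 13.7, 15.4 and 14.8 CPM (log2 fold change 3.86, SE 1.58, adjusted p = 0.497).

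The survival gene Bcl2 fell from 663, 303 and 948 CPM to 77.9, 43.6 and 86.97 CPM (log2 fold change -3.20, SE 0.49, adjusted p = 0.0114), the only call among 16 genes of its family tested. Mcl1, an anti-apoptotic relative, was at 630.3, 582 and 552 CPM in stage 0 and 392, 324 and 367 CPM in stage 1, without overlap and without passing (log2 fold change -0.70, SE 0.26, adjusted p = 0.413).

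For 3 of the rises stage 0 held almost no counts. Csf1, a growth factor of macrophages, was at 0, 0.394 and 0.394 CPM in stage 0 and 96.2, 8.09 and 104 CPM in stage 1 (log2 fold change 7.92, SE 1.49, adjusted p = 0.0392). Its 4 counts over stage 0 and 1031 over stage 1 give a ratio of 262 (95% exact interval 102 to 962, counting error only). F2rl1, a receptor activated by proteases, was at 0.398, 0.394 and 0.5905 CPM and 10.96, 23.9 and 57.8 CPM (log2 fold change 5.99, SE 1.14, adjusted p = 0.0393), with 7 and 458 counts and a ratio of 66.4 (32.0 to 166). Paqr8, a membrane progestin receptor, was at 0.199, 0.197 and 0.197 CPM and 11.4, 5.73 and 15.6 CPM (log2 fold change 5.62, SE 1.06, adjusted p = 0.0393), with 3 and 162 counts and a ratio of 54.8 (18.4 to 269). Their stage 1 libraries spread widely, and stage 1 replicate 2 was the lowest for Csf1. Fitted fold changes of genes at such low counts depend on the prior count.

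The other rises were of genes already counted in every stage 0 library. Arl4c, a small GTPase of membrane traffic, was at 42.5, 69.7 and 26.6 CPM in stage 0 and 374, 298 and 439 CPM in stage 1 (log2 fold change 3.0, SE 0.39, adjusted p = 0.00343). Ugcg, which makes glucosylceramide, the first step of glycosphingolipid synthesis, was at 289.8, 511 and 229 CPM and 1427, 1804 and 1649 CPM (log2 fold change 2.24, SE 0.32, adjusted p = 0.00583). It was the only call among the 33 genes tested in the list of sialic acid and glycosphingolipid enzymes (median 0.06, a sign that changed under other settings). Siae, a sialic acid enzyme outside that list, fell and is described with the remaining falls. Inpp4b, a phosphoinositide phosphatase, was at 109.9, 238 and 83.7 CPM and 700.2, 722 and 675 CPM (log2 fold change 2.28, SE 0.39, adjusted p = 0.0202). Kbtbd11, a BTB and kelch domain gene, was at 60.6, 118 and 74.99 CPM and 316, 375 and 363 CPM (log2 fold change 2.06, SE 0.40, adjusted p = 0.0433). The remaining rises were B2m, described with the MHC class I genes, and the pseudogene Gm1966 at 50.7, 131 and 72.4 CPM and 471, 663 and 363 CPM (log2 fold change 2.56, SE 0.40, adjusted p = 0.0125).

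Most of the remaining falls lay outside the lists. Med14, a Mediator subunit, was at 2307, 1536 and 2596 CPM in stage 0 and 409.9, 272 and 453 CPM in stage 1 (log2 fold change -2.50, SE 0.26, adjusted p = 9.94e-04). Gpr174, a receptor for lysophosphatidylserine, was at 148, 69.5 and 70.9 CPM and 2.79, 4.15 and 3.49 CPM (log2 fold change -4.78, SE 0.61, adjusted p = 0.0031), and Gpr83, a receptor of T cells and the 1 fall among 9 regulatory T cell markers tested, at 48.3, 33.1 and 54.5 and 1.196, 2.57 and 1.23 CPM (log2 fold change -4.74, SE 0.92, adjusted p = 0.0417). The stage 1 libraries of both receptors were below 5 CPM. Enzyme genes included Siae, a sialic acid acetylesterase, at 305, 204 and 225 CPM and 49.8, 33.8 and 83.1 CPM (log2 fold change -2.14, SE 0.40, adjusted p = 0.0392), and Chst2, a sulfotransferase of carbohydrate ligands, at 759.7, 311 and 905 and 48.6, 33.2 and 120.4 CPM (log2 fold change -3.29, SE 0.63, adjusted p = 0.0393). Etnk1, an ethanolamine kinase, fell from 771, 992 and 1129 CPM to 208, 305 and 279.8 CPM (log2 fold change -1.87, SE 0.26, adjusted p = 0.00493). The further falls, Cep170, Dzip1, Hectd2, Mpp4, Muc6, Nrip1, Plxdc2, Raph1, Sh3bp2, Slc25a17, Strbp and Vamp1, had log2 fold changes from -4.74 to -1.70, as did, from -2.98 to -1.17, a set of 6 predicted, non-coding or unmatched genes that are counted and not described. Those of Dzip1, Hectd2 and Mpp4 rest on counts over exons that another gene covers in part (28.4%, 20.2% and 13.8% of their bases). The same holds for Kbtbd11 (24.8%), Lef1 (13.7%), Siae (10.8%) and Il4ra (9.51%).

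Among 28 glycolytic genes tested 2 fell, against 0.363% of all genes (median 0.15, a sign that changed under other settings). Pfkp, the platelet-type phosphofructokinase, was at 378, 380.4 and 407 CPM in stage 0 and 141, 124 and 149 CPM in stage 1 (log2 fold change -1.49, SE 0.25, adjusted p = 0.0179). Ldhb, a lactate dehydrogenase subunit, was at 153, 119 and 129.9 CPM and 23.5, 6.32 and 24.8 CPM (log2 fold change -2.88, SE 0.56, adjusted p = 0.0417). The other subunit, Ldha, stood at 475, 363 and 270.2 CPM and 714, 467 and 656 CPM (log2 fold change 0.73, SE 0.25, adjusted p = 0.396), so the 2 subunits had opposite signs and Ldha did not pass. Pgk1, phosphoglycerate kinase, was at 119.7, 109.9 and 102 and 222, 151 and 230.3 CPM (log2 fold change 0.86, SE 0.26, adjusted p = 0.304), again without overlap.

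B2m, the light chain of every MHC class I molecule, rose from 602, 921 and 298 CPM in stage 0 to 2478, 2236 and 2894 CPM in stage 1 (log2 fold change 2.06, SE 0.33, adjusted p = 0.0155). It was the only call among 29 genes of class I presentation (median 0.88, 20 positive). The heavy chains H2-K1 and H2-D1 were at 208, 406 and 41.3 and 129, 354 and 156 CPM in stage 0. In stage 1 they stood at 874, 1369 and 949 and 599.6, 761 and 647 CPM, above every stage 0 library, without passing (adjusted p = 0.159 and 0.179). Without stage 0 replicate 2 both passed, at log2 fold changes of 3.06 and 2.20 (adjusted p = 0.0385 and 0.0433). Heavy chain genes resemble each other, so counting may have split or shared their reads. Tapbp, the tapasin chaperone, was at 37.8, 44.1 and 18.3 CPM and 192, 133 and 160.2 CPM (log2 fold change 2.28, SE 0.48, adjusted p = 0.0639), and 29.02% of its exonic bases are shared with another gene. Nlrc5, the transactivator of class I genes, was at 56.8, 64.97 and 17.3 CPM and 145, 243 and 190.1 CPM (log2 fold change 2.06, SE 0.46, adjusted p = 0.0875).

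No interferon-stimulated gene passed in the edgeR test, although 46 of 51 had a positive log2 fold change (median 1.39). Of the 51, 20 had an unadjusted p under 0.05, against 8.40% of all genes. In 32 of the 51 every stage 1 library was above every stage 0 library, against 12.5% of all genes, and in none was the order the opposite. Oas3, an oligoadenylate synthetase of the antiviral response, was at 81.9, 85.4 and 14.6 CPM in stage 0 and 494, 314 and 501 CPM in stage 1 (log2 fold change 2.85, SE 0.63, adjusted p = 0.0836), and Oas2 at 0.795, 7.48 and 4.13 and 51.8, 64.2 and 72.2 CPM (log2 fold change 3.91, SE 0.93, adjusted p = 0.111). Stage 0 replicate 3 was the lowest stage 0 library for Oas3 and for Tapbp, Nlrc5 and H2-K1. Igtp, an immunity-related GTPase, was at 8.94, 59.7 and 6.69 CPM and 129, 114 and 138 CPM (log2 fold change 2.34, SE 0.70, adjusted p = 0.28), and without stage 0 replicate 2 it passed, at a log2 fold change of 3.98 and adjusted p = 0.00396. Without stage 0 replicate 2 the list held 4 calls, all higher at stage 1, against 59 higher of 16759 genes tested in that fit.

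Of 59 mitosis and G2/M genes, 53 had a positive log2 fold change (median 0.89) and none passed in the edgeR test. An unadjusted p under 0.05 was reached by 10, against 8.40% of all genes. Top2a, a topoisomerase of dividing cells, was at 56.3, 134 and 83.5 CPM in stage 0 and 316, 169 and 309.7 CPM in stage 1 (log2 fold change 1.54, SE 0.35, adjusted p = 0.0875), and without stage 0 replicate 2 it passed, at a log2 fold change of 1.89 and adjusted p = 0.0356. Mki67, the proliferation antigen, was at 441, 346 and 338 CPM and 1166, 442 and 1302 CPM (log2 fold change 1.37, SE 0.38, adjusted p = 0.226). For both genes stage 1 replicate 2 was the lowest of its group and near the stage 0 range, as it was for the summed list, at 2184, 2033 and 2221 CPM and 3893, 2062 and 4234 CPM. Of the 42 DNA replication genes 32 were positive (median 0.43), and of the D cyclins, G1 kinases and inhibitors 18 of 23 (median 0.55). Cdk6, a kinase of G1, was at 279.9, 252 and 306 CPM and 489.8, 456 and 821 CPM (log2 fold change 1.08, SE 0.28, adjusted p = 0.171). Ccnd2, cyclin D2, was at 704, 696 and 759.9 CPM and 959, 1223 and 1160.1 CPM (log2 fold change 0.63, SE 0.20, adjusted p = 0.353). Both separated the groups without passing.

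Of 79 cytosolic ribosomal protein genes tested, 77 were positive (median 0.46), 21 had groups apart, all higher at stage 1 (12.5% of all genes were), and none passed. Rpl4 was at 679, 629.8 and 597 CPM in stage 0 and 879, 1395 and 1134 CPM in stage 1 (log2 fold change 0.84, SE 0.22, adjusted p = 0.164). The summed level of the list was 20057, 20579 and 14005 CPM in stage 0 and 26048, 28042 and 21521 CPM in stage 1. The ribosome biogenesis and MYC target list had a median of 0.16, with 26 of 42 positive.

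The lists of effector genes and chemokine receptors had some of the highest medians, with few calls. In the NKT2 list, genes of interleukin 4-producing cells, Icos rose and Slamf6 fell among 16 tested (median 1.65). None of 19 NKT1 genes passed (median 1.39, 3 at an unadjusted p under 0.05), nor any of 15 NKT17 genes (median 2.73, 4) or 16 chemokine receptors (median 1.74, 7). Over all genes 8.40% had an unadjusted p under 0.05. Maf, a factor of cytokine-producing T cells, was at 1.99, 95.7 and 8.27 CPM in stage 0 and 187, 353 and 506 CPM in stage 1 (log2 fold change 3.30, SE 1.01, adjusted p = 0.298). Rora, an orphan nuclear receptor of innate-like lymphocytes, was at 9.94, 78.2 and 10.04 CPM and 192, 242 and 277 CPM (log2 fold change 2.86, SE 0.76, adjusted p = 0.18). Il18r1, the interleukin 18 receptor, was at 14.3, 219 and 1.97 CPM and 464, 605 and 823 CPM (log2 fold change 3.01, SE 1.12, adjusted p = 0.425). In each of these, stage 0 replicate 2 was far above replicates 1 and 3 and below every stage 1 library. Without it the 3 genes passed, at log2 fold changes of 6.04, 4.53 and 6.23 (adjusted p = 0.00396, 0.00466 and 0.00897). Ccr2, a chemokine receptor of effector cells, was at 13.1, 112 and 28.9 CPM and 218, 264 and 182 CPM (log2 fold change 2.11, SE 0.78, adjusted p = 0.425), and Cxcr3 at 0, 6.69 and 0 and 19.7, 36.7 and 25.2 CPM (log2 fold change 3.59, SE 1.78, adjusted p = 0.641).

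For receptor gamma chain genes, too, stage 0 replicate 2 was above replicates 1 and 3. Tcrg-C2, a constant region of the gamma chain, was at 31.01, 549 and 10.04 CPM in stage 0 and 535, 1734 and 969 CPM in stage 1 (log2 fold change 2.46, SE 1.00, adjusted p = 0.497), Tcrg-C1 at 50.1, 256 and 2.76 and 430.2, 1059.6 and 545 CPM, and Tcrg-C4 at 56.4, 153 and 4.92 and 355, 706 and 433 CPM. For Tcrg-C2, stage 0 replicate 2 was even above the lowest stage 1 library, and without it the gene passed at a log2 fold change of 5.68 (adjusted p = 0.00202). Sox13, a factor of gamma-delta T cells, was counted only in replicate 2 of stage 0, at 0, 57.1 and 0 CPM, and at 51.2, 136 and 113 CPM in stage 1, and it passed without that library (adjusted p = 0.0127). Trdc, the constant region of the delta chain that defines gamma-delta T cells, was at 0.398, 12.2 and 2.76 CPM in stage 0 and 0.399, 0.197 and 0.205 CPM in stage 1, under the floor of 3 counts in each stage 1 library. Over the 12 gamma-delta markers in the files the summed level was 141, 1226 and 29.3 CPM and 1758, 4331 and 2776 CPM. Without stage 0 replicate 2, 5 of the 11 genes tested in the gamma-delta list rose (median 7.23 against 2.80), and 4 of the 15 in the NKT17 list (median 4.15 against 2.73). In that fit 59 of all 16759 genes tested rose. The constant regions resemble each other, so the split of reads between them is uncertain.

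**Figure D3:**
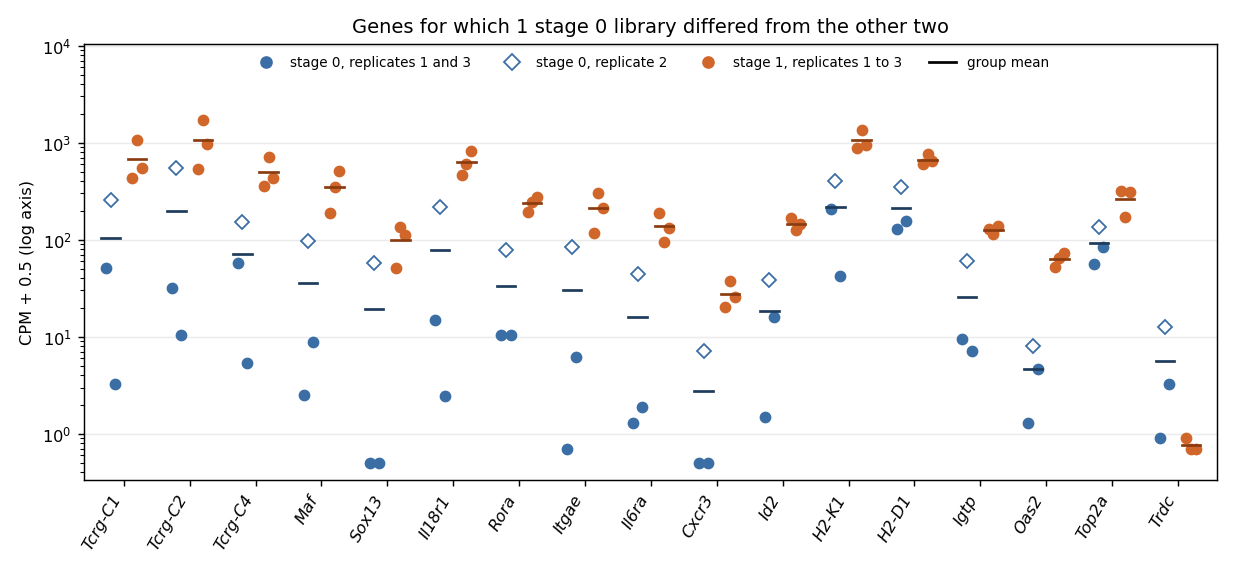
CPM plus 0.5 (log axis) of 17 genes in the 6 WT libraries; the open diamond is stage 0 replicate 2, other symbols are as defined in the key, and bars are group means. For Maf, Rora, Il18r1 and Igtp the diamond lies between replicates 1 and 3 of stage 0 and the stage 1 points, and Trdc is under 0.5 CPM in all stage 1 libraries.

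The position of stage 0 replicate 2 was measured on genes chosen without it. Over the 59 genes that rose in the fit without it, its median position was 63.1% of the way from the mean of stage 0 replicates 1 and 3 (0%) to the mean of stage 1 (100%) on the log2(CPM + 0.5) scale, and over the 80 that fell it was 27.9%. Replicates 1 and 3 served both to call these genes and as the 0% point. That choice moves a left-out stage 0 library towards stage 1, by an amount that was not measured. The same measure for stage 0 replicate 1 gave -0.682% over 2 risen genes and -8.55% over 23 fallen ones. For replicate 3 it gave -46.6% over 5 and -13.1% over 21. For replicates 1 and 3 the 0% point included replicate 2, and the genes were called in fits that held it. Their values are therefore not like for like with the 63.1% and 27.9% of replicate 2. Stage 1 libraries lay between 85.0% and 112% when left out in turn.

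**Figure D4:**
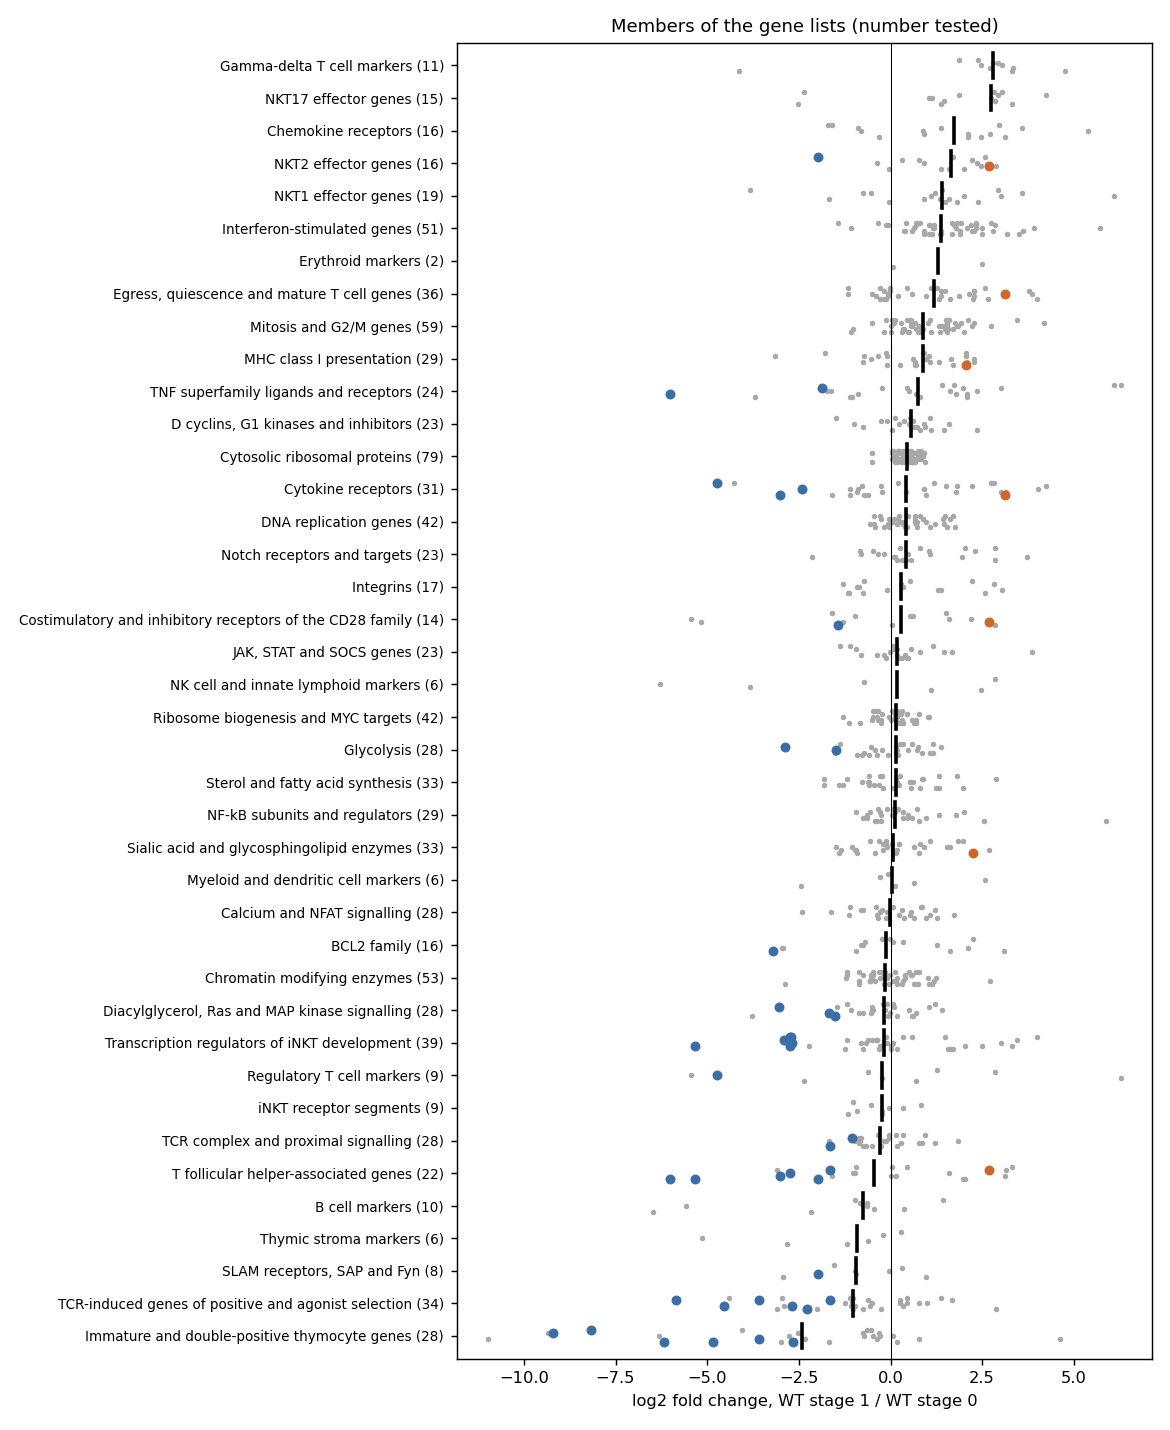
Log2 fold change of stage 1 over stage 0 for each tested member of the gene lists, ordered by the list median (black bar); orange points rose, blue points fell and grey points were not called. The double-positive thymocyte list lies lowest at -2.43, and the lists of gamma-delta and NKT17 genes lie highest with no call in this fit; without stage 0 replicate 2 they held 5 and 4.

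The receptor segments were compared as shares of their own class. Trav11 and Trav11d, the V segments of the invariant alpha chain, together made up 61.7 ± 4.35% of Trav counts in stage 0 and 80.4 ± 1.30% in stage 1 (SD, n = 3). The libraries read 66.7%, 59.0% and 59.4% in stage 0 and 80.9%, 81.3% and 78.9% in stage 1, without overlap. An exact two-sided permutation test gave p = 0.1, the smallest that 3 against 3 allows. The 2 segments held nearly the same counts in each library (2006 and 2006 in stage 0 replicate 1, for example), so the same reads may stand in both. With Trav11d left out of the sum and the total the shares were 44.7 ± 4.64% and 67.2 ± 1.80%. In CPM, Trav11 was at 399, 307 and 217 and 255, 285 and 240.4 CPM, with overlapping groups. The beta segments typical of mouse iNKT cells (Trbv13-1, Trbv13-2, Trbv13-3, Trbv29 and Trbv1) made up 63.8 ± 6.50% and 76.0 ± 6.46% of Trbv counts. The Trbv13 segments went from 53.0 ± 9.01% to 46.5 ± 21.4%, Trbv29 from 6.64 ± 3.52% to 15.9 ± 6.67% and Trbv1 from 4.16 ± 2.15% to 13.6 ± 8.69%. The groups overlapped for the Trbv13 segments and Trbv29 and were narrowly apart for Trbv1, and no test was made.

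Gene-level counts of Bcl6 did not show a loss in the libraries labelled Bcl6KO, at 511, 657 and 652 CPM in stage 0 and 14.7, 56.05 and 25.2 CPM in stage 1. They do not tell whether part of the gene was deleted, and no source used here names the floxed exons. The same stage contrast in the libraries labelled Bcl6KO, which shares no library with the WT contrast, gave 106 calls (0.675% of 15704), of which 66 were higher (0.420%) and 40 lower (0.255%) at stage 1. All 68 genes called in WT had the same direction in Bcl6KO, against 59.7% of all genes tested, and 30 of them passed there. The 57 falls had a median log2 fold change of -2.69 in WT and -1.77 in Bcl6KO, and the 11 rises 2.67 and 2.31. The change was smaller in Bcl6KO for 58 of the 68. The 68 were chosen for passing in WT, which favours large WT values, so these medians and this count are no evidence of a smaller change in Bcl6KO. No gene passed the test of the difference between the genotypes' stage effects in edgeR, with 1221 at an unadjusted p under 0.05 (7.78%). No gene is thus shown to differ in the main edgeR fit. DESeq2 called 130, so this result depends on the tool.

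Il7r had one of the widest gaps between the genotypes. In Bcl6KO it was at 255, 818 and 324 CPM in stage 0 and 451, 551 and 432 CPM in stage 1, a log2 fold change of 0.04 against 3.13 in WT (difference 3.09, unadjusted p = 0.00123, edgeR adjusted p = 0.494). Tnfsf8 had -1.24 in Bcl6KO and -6.02 in WT (difference -4.78, unadjusted p = 3.72e-04, adjusted p = 0.483), and Arpp21 -3.33 and -9.20 (unadjusted p = 1.46e-04, adjusted p = 0.483). Rag1 and Cd24a had log2 fold changes of -10.31 and -7.49 in Bcl6KO, against -6.17 and -4.83 in WT (unadjusted p = 0.0204 and 0.0208, adjusted p = 0.571 and 0.571 for the differences). Ugcg, Arl4c and Inpp4b were at 2.47, 3.15 and 2.31 in Bcl6KO and 2.24, 3.0 and 2.28 in WT.

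**Figure D5:**
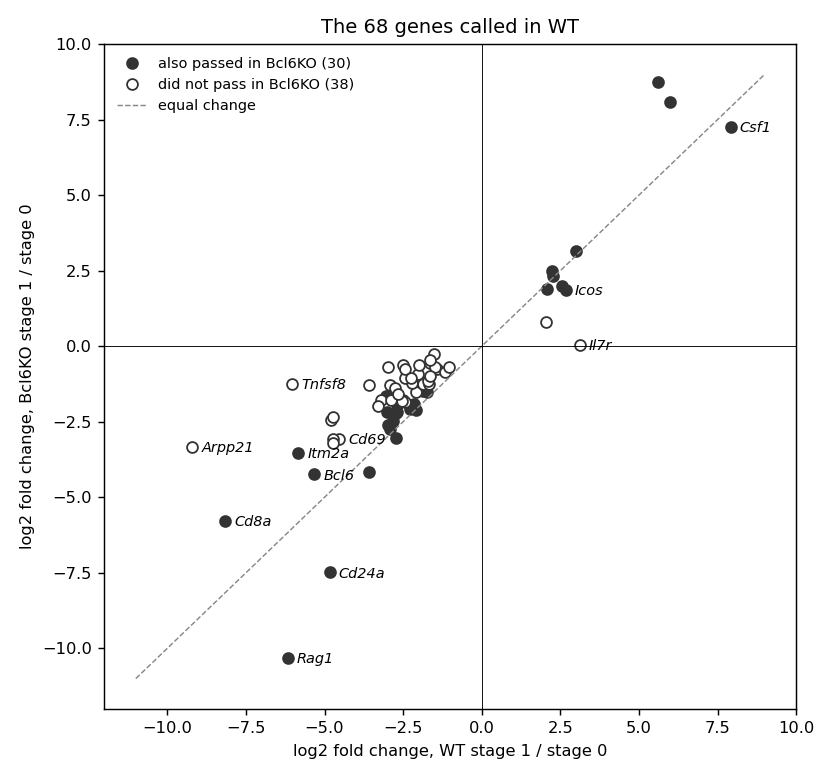
Log2 fold change of stage 1 over stage 0 in WT (horizontal) and Bcl6KO (vertical) for the 68 genes called in WT; filled points also passed in Bcl6KO, open points did not, and the dashed line marks equal change. All points have the same sign on both axes, and Il7r lies at 3.13 in WT and 0.04 in Bcl6KO.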

How the data were processed

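RNA was sequenced from sorted thymic iNKT cells, per the labels' protocols with a QIAGEN micro kit and NuGEN Ovation Ultralow libraries. The authors deposited raw counts per Ensembl gene for each library. The submitters' processing notes name bcl2fastq, TopHat2, Bowtie2, DESeq and build mm10, without roles. No source used here names the counting program, the annotation or the strand setting. Reads of genes that overlap, or of antisense partners, therefore cannot be separated. Of 48672 IDs, 48312 matched GENCODE names. Promoters came from RefSeq (GRCm38.p6).

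Counts of all 12 libraries were fitted with 1 mean per group in edgeR 4.0.16 (R 4.3.3), with TMM scaling, its filter on low counts, the robust quasi-likelihood F-test and Benjamini-Hochberg adjustment over 15704 genes; calls have an adjusted p under 0.05. Each SE was derived from the fold change and its F statistic. The common coefficient of variation was 0.835. WT totals of 4213431 to 5190157 counts set the precision. No pair of libraries agreed within sampling noise. Alternatives were other scalings, filters, DESeq2 1.42.0, limma 3.58.1 (voom), a replicate block, WT libraries alone and each library left out.

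Named genes are all called genes, the sort and iNKT markers, per list up to 3 of lowest p in each direction and 3 of highest CPM, markers of other cells, and 5 of lowest p for the genotype difference; others are marked. Members and lists were chosen with earlier results of these data known, so lists are described by counts and medians.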

Additional observations from a re-analysis of the deposited data

Results flagged for a closer look

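Among 149 named or described genes, 3 (2.01%) were ones in which every WT library moved up between the stages and every library labelled Bcl6KO moved down, in the sense that neither pair of groups overlapped. Over all 15704 genes tested, 78 (0.497%) had opposite changes of this kind, in either direction. The named genes include ones picked for a low p in WT or for the genotype difference. The 2.01% and 0.497% are therefore not like for like. No gene passed the test of the difference over all genes in edgeR. Ccnd2, cyclin D2, was at 1739.6, 2355 and 2627 CPM in Bcl6KO stage 0 and 1117, 1481 and 1270.4 CPM in stage 1, against the WT values of 704, 696 and 759.9 and 959, 1223 and 1160.1 CPM (difference of log2 fold changes 1.43, unadjusted p = 2.58e-04, adjusted p = 0.483). Scd2, a fatty acid desaturase, was at 240.1, 344 and 184 CPM in WT stage 0 and 495, 465 and 463 CPM in WT stage 1, and at 527, 656 and 907 and 411, 294 and 433 CPM in Bcl6KO (difference 1.77, unadjusted p = 7.01e-04, adjusted p = 0.483). Pgk1 was at 236, 283 and 264 CPM in Bcl6KO stage 0 and 188, 195 and 159.9 CPM in stage 1 (difference 1.39, unadjusted p = 0.00245, adjusted p = 0.506). For all 3 genes the stage 0 libraries labelled Bcl6KO were above the WT ones.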

How the results depend on the processing

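The count of 68 called genes became 142 with no filter on low counts, 376 in DESeq2, 301 in voom with quality weights and 96 with only the 6 WT libraries. Leaving out 1 library gave 20 to 139 calls: 25, 139 and 26 without WT stage 0 replicates 1, 2 and 3, then 20, 24 and 30 without those of WT stage 1, 105 without Bcl6KO stage 0 replicate 2 and 45 without Bcl6KO stage 1 replicate 2. Of the 68, 16 passed in all 21 alternatives, 62 in 11 or more, and 0 changed sign. A replicate block gave 53 calls, 45 of them shared with the 68. Correlations of same-numbered libraries' deviations from their group means ran from -0.075 to 0.12. With no different-numbered pairs beside them, they do not tell whether same-numbered libraries were paired. The genotype difference had 7 calls with no filter and 130 in DESeq2. The share of called genes with the same direction in Bcl6KO was 91.2% in DESeq2 and 93.0% in voom. The cause of these differences was not tested. List medians kept 1 sign in every setting for 28 of 40 lists. At this depth, genes under 3 counts a library, such as Trdc at stage 1, are not told apart from 0.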

Other observations

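Without stage 0 replicate 2, further genes passed that are not among the 68. They were chosen after their values were seen, and every one of these calls rests on 2 stage 0 libraries. Vdr and Rxra, which encode the vitamin D receptor and its partner, were both higher at stage 1. Vdr was at 1.59, 22.4 and 0.5905 CPM in the 3 stage 0 libraries and 80.5, 135 and 168 CPM in stage 1 (log2 fold change 6.80, edgeR adjusted p = 0.0191). Rxra was at 1.59, 25.4 and 3.54 CPM and 120.4, 89.8 and 133 CPM (log2 fold change 5.43, adjusted p = 0.03). Zfp683, which encodes Hobit, a factor of resident lymphocytes, was at 0.398, 11.03 and 0 CPM and 45.4, 27.2 and 43.1 CPM (adjusted p = 0.045). Adam19, a membrane metalloprotease, was at 1.99, 223 and 2.36 CPM and 446, 951 and 665 CPM (adjusted p = 9.48e-04). In all 4 the left-out library held more than stage 0 replicates 1 and 3. Picking rises that passed in this fit and not in the main one favours that order, so it is no further result.

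Among the genes lower at stage 1 in that fit, Kcnn4, a calcium-activated potassium channel of lymphocytes, was at 229, 97.7 and 199 CPM and 64.8, 38.3 and 59.3 CPM (log2 fold change -2.02, adjusted p = 0.0209). Cytip, a regulator of integrin adhesion, was at 881, 375 and 721 CPM and 195, 94.2 and 201 CPM (log2 fold change -2.33, adjusted p = 0.0262). Arid5b, a chromatin-binding factor, was at 244, 92.7 and 184 CPM and 44.4, 18.6 and 29.9 CPM (log2 fold change -2.82, adjusted p = 0.0379).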
